A study of Mus musculus with 4 samples.

Results

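Cystatins are inhibitors of papain-like cysteine proteases, the enzymes that break down proteins in lysosomes and, once secreted, outside the cell. The 9 genes described here are Cst6 (cystatin M/E), the cystatins Cst3 and Cstb, the lysosomal proteases Ctsl, Ctsb, Ctsh, Ctsd and Lgmn, and the transglutaminase Tgm3. They were taken by symbol from a table of 55401 genes, in which each of the 9 had 1 row. They were chosen by name with the counts of Cst6 and its difference between the diets already known, that is, selected on values of the same comparison, so their differences between diets are given as a description, without a test. C57BL/6 mice were the source of the hair follicle stem cells, whose RNA was sequenced in anagen, when hair grows. Mice received a high-fat diet for 4 months or a normal diet, whose duration the labels do not give, with 2 libraries per diet. The labels give neither the sex and age of the mice nor how the cells were isolated, nor whether each library is a different mouse. The spread behind each p-value is thus that between libraries, and it may be technical.

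In skin, cystatin M/E is a secreted inhibitor of cathepsin L and, at a separate site, of legumain, and mice without it have a disturbed cornified layer and abnormal hair follicles. Cathepsin L takes part in the activation of transglutaminase 3, which cross-links structural proteins of the cornified envelope and of the inner root sheath of the hair. Mice without cathepsin L lose and regrow hair in waves. Cathepsin D is an aspartic protease, which cystatins do not inhibit, and legumain belongs to a protease family of its own that cuts after asparagine.

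Total counts were 8734246 and 8590570 in the high-fat diet libraries and 9940848 and 9366856 in the normal diet libraries, and a floor of 3 counts was worth 0.291 to 0.359 CPM, the unit of counts scaled to library size by TMM. Of 14479 genes with enough counts to test, 162 were higher and 33 were lower with the high-fat diet (edgeR quasi-likelihood test, adjusted p under 0.05). Of 13 markers of bulge stem cells, the cells named by the labels, 12 were measured well enough to test, and their sum reached 22503 and 20218 CPM on the high-fat diet against 15817 and 18529 CPM on the normal diet. Keratins Krt5, Krt14 and Krt15 supply most of that sum, and Krt14 was the 1 marker of the list called higher, while Krt15 had a log2 fold change of 0.34 ± 0.14 (SE; edgeR adjusted p = 0.302). The defining surface marker Cd34 was present, with 587 and 543 counts on the high-fat diet and 835 and 703 counts on the normal diet. Of the 12 tested markers 6 were lower and 4 were higher without overlap between the diets, against 21.9% lower and 22.7% higher over all genes tested. The 6 lower were Cd34, Lgr5, Sox9, Lhx2, Nfatc1 and Tcf3, and the 4 higher were Krt5, Krt14, Krt15 and Itga6. The median log2 fold change of the 12 was -0.09.

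Cst6 (ENSMUSG00000024846, chromosome 19, positions 5344705 to 5349574, minus strand, GRCm38) stood apart from the other 8 genes by the size of its difference. It had 1338 and 1039 counts in the high-fat diet libraries, against 562 and 435 counts in the normal diet libraries. Per length this was 37.45 and 29.57 FPKM (fragments scaled to exonic length and to the total count) with the high-fat diet and 13.82 and 11.35 FPKM with the normal diet. Both high-fat diet libraries lay above both normal diet libraries. Scaled by TMM, the mean was 142 ± 24.7 CPM with the high-fat diet against 50.1 ± 6.40 CPM with the normal diet (SD, n = 2 each). The fitted log2 fold change was 1.5 with a standard error of 0.17, a 2.83-fold difference, and it lay between 1.31 and 1.67 when any 1 of the 4 libraries was left out.

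The other 2 cystatins were closer between the diets. Cstb, or stefin B, is an inhibitor that stays inside the cell. It had 49.94 and 57.33 FPKM with the high-fat diet and 26.86 and 40.72 FPKM with the normal diet. These values did not overlap, and the log2 fold change was 0.75 ± 0.25 (SE), with 1.09 when the second normal diet library was left out and 0.48 when the first was. Cst3, or cystatin C, is a secreted inhibitor of broad range. It had 91.43 and 66.20 FPKM with the high-fat diet and 54.51 and 76.82 FPKM with the normal diet, so the diets overlapped, and its log2 fold change was 0.35 ± 0.20 (SE). Cst6 made up 20.9% and 19.3% of the summed FPKM of the 3 cystatins with the high-fat diet, against 14.5% and 8.81% with the normal diet.

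**Figure D1:**
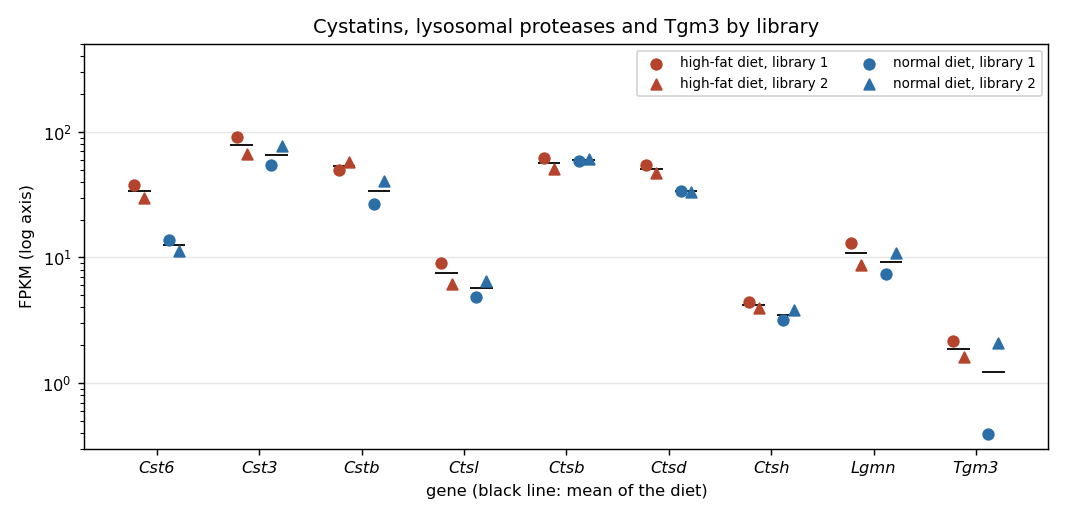
FPKM of the 9 genes on a log axis in each library, with high-fat diet libraries in red and left of the normal diet libraries in blue; black lines are the means of the 2 libraries of a diet. Cst6 lies at 37.45 and 29.57 FPKM with the high-fat diet, above 13.82 and 11.35 FPKM with the normal diet, while Cst3, Ctsl, Ctsb, Lgmn and Tgm3 overlap between the diets.

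Among the cysteine cathepsins, Ctsl and Ctsb overlapped between the diets. Ctsl, the cathepsin that cystatin M/E inhibits in mouse epidermis, had 9.03 and 6.10 FPKM with the high-fat diet and 4.87 and 6.55 FPKM with the normal diet. The second high-fat diet library lay below the second normal diet library, and the log2 fold change was 0.49 ± 0.23 (SE). Ctsb, which acts both as an endopeptidase and by removing dipeptides from the carboxyl end, had 61.85 and 50.13 FPKM with the high-fat diet and 58.88 and 60.59 FPKM with the normal diet. Its log2 fold change was -0.01 ± 0.13 (SE), the smallest in size of the 9. Ctsb overlaps Fdft1 by 774 bases on the opposite strand, Fdft1 had 512 and 528 counts with the high-fat diet and 1022 and 683 with the normal diet, and how the counting treated strand is not given in the sources used here, so reads of the 2 genes may not be fully separated. Ctsh, mainly an aminopeptidase, had 20.5 and 18.4 CPM with the high-fat diet against 13.8 and 17 CPM with the normal diet, without overlap, but its log2 fold change of 0.34 was little larger than its standard error of 0.26.

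Lgmn, which encodes legumain, followed Ctsl from library to library. It had 13.06 and 8.67 FPKM with the high-fat diet and 7.45 and 10.94 FPKM with the normal diet, and its log2 fold change of 0.33 ± 0.28 (SE) was -0.01 without the first high-fat diet library. Cst3, Ctsl and Lgmn shared 1 order in CPM, highest in the first high-fat diet library, then the second normal diet library, then the second high-fat diet library, and lowest in the first normal diet library. Of the 9 genes, 8 were highest in the first high-fat diet library and 6 were lowest in the first normal diet library. Between the 2 high-fat diet libraries Cst3, Ctsl and Lgmn differed by 0.48, 0.58 and 0.61 on the log2 scale, in each case more than the fold change between the diets.

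Ctsd, the aspartic protease, had 54.54 and 47.34 FPKM with the high-fat diet and 34.10 and 33.33 FPKM with the normal diet (ENSMUSG00000007891, chromosome 7, positions 142375911 to 142388038, minus strand). The normal diet libraries lay close together and below both high-fat diet libraries. In CPM the means were 124 ± 13.4 with the high-fat diet and 77.1 ± 0.404 with the normal diet (SD, n = 2 each), a log2 fold change of 0.68 ± 0.14 (SE) that lay between 0.57 and 0.79 when any 1 library was left out. It overlaps Gm49369 on the same strand, which had 0 and 6 counts with the high-fat diet and 0 and 0 with the normal diet.

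Tgm3 was the least abundant of the 9. It had 78 and 57 counts with the high-fat diet, against 16 and 80 counts with the normal diet. The first normal diet library stood alone at 0.39 FPKM, while the other normal diet library, at 2.07 FPKM, lay between the high-fat diet libraries at 2.16 and 1.60 FPKM. The log2 fold change of 0.70 ± 0.62 (SE) was -0.05 with the first normal diet library left out and 2.36 with the second left out.

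All 9 genes passed the filter on low counts. In the fit over all genes 2 of the 9, Cst6 and Ctsd, had an adjusted p under 0.05, both higher, where 1.35% of all genes tested were called, 1.12% higher and 0.228% lower. Without the first or the second normal diet library neither was past that threshold, and without either high-fat diet library Cst6 alone was. With scaling to the sum of TPM or to total counts 1 of the 9 was called, and with limma 0. The diets did not overlap for 4 of the 9 (Cst6, Cstb, Ctsd and Ctsh), all higher with the high-fat diet, where 44.6% of all genes tested did not overlap, 22.7% in that direction. The median log2 fold change was 0.49 over the 9 genes and 0.002 over all genes tested. Since this contrast was known when the genes were chosen, nothing further is read from these counts.

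**Figure D2:**
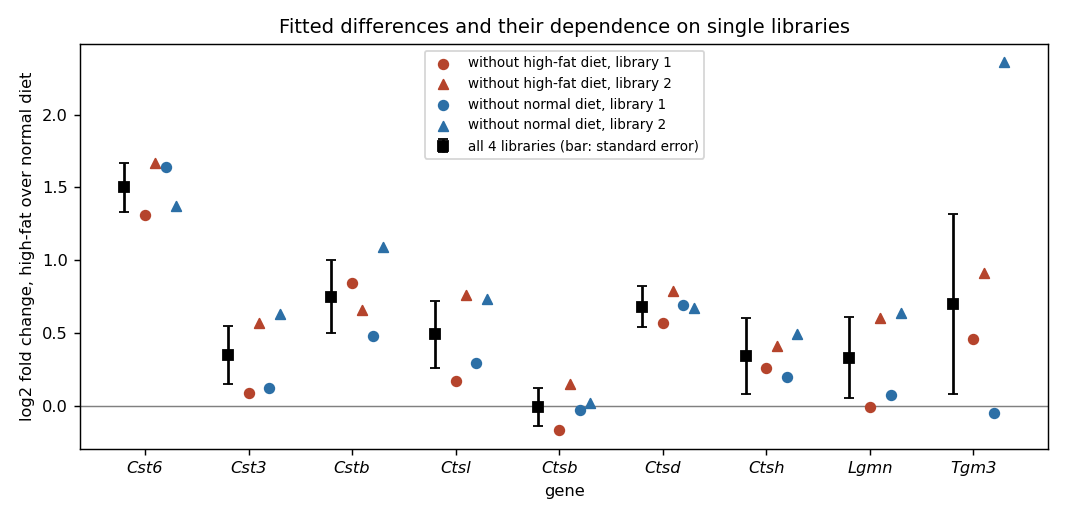
Log2 fold change of high-fat over normal diet for each of the 9 genes, from all 4 libraries (black squares, bars are the standard error) and after leaving out 1 library (colours and symbols). Cst6 stays between 1.31 and 1.67 and Ctsd between 0.57 and 0.79, whereas Tgm3 runs between -0.05 and 2.36.

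Within a library, ratios of levels do not depend on the scaling of that library. The FPKM of Cst6 was 4.15 and 4.85 times that of Ctsl with the high-fat diet, against 2.84 and 1.73 times with the normal diet. Against Lgmn the ratio was 2.87 and 3.41 with the high-fat diet and 1.86 and 1.04 with the normal diet. Against Ctsb it was 0.605 and 0.590 with the high-fat diet and 0.235 and 0.187 with the normal diet. All 3 ratios were therefore higher in both high-fat diet libraries. The ratio of Cst3 to Ctsl varied little, at 10.1 and 10.9 with the high-fat diet and 11.2 and 11.7 with the normal diet. Ctsd stood at 0.882 and 0.944 times Ctsb with the high-fat diet, against 0.579 and 0.550 times with the normal diet.

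**Figure D3:**
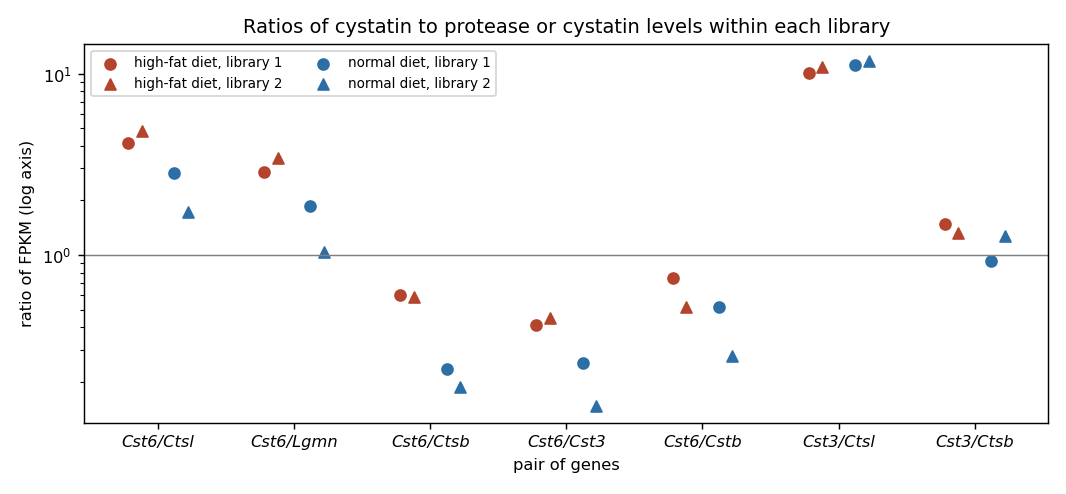
Ratio of FPKM between pairs of genes on a log axis in each library, high-fat diet in red and left of the normal diet in blue. The ratios of Cst6 to Ctsl, Lgmn, Ctsb, Cst3 and Cstb lie higher in both high-fat diet libraries (for Cstb 0.750 and 0.516 with the high-fat diet against 0.515 and 0.279 with the normal diet), while that of Cst3 to Ctsl stays between 10.1 and 11.7.

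Ordered by mean FPKM over the 4 libraries, the genes ran Cst3, Ctsb, Cstb, Ctsd, Cst6, Lgmn, Ctsl, Ctsh and Tgm3, with means between 72.2 FPKM for Cst3 and 1.56 FPKM for Tgm3. Neighbours in this order overlapped in range except Ctsl with Ctsh and Ctsh with Tgm3. The mean of Cst3 exceeded that of 97.0% of genes tested, and the mean of Cst6 that of 88.1%. The order rests on the exonic size that the table gives each gene, 6489 bases for Ctsl against 1971 bases for its first listed coding transcript (GENCODE M21). Taken over the first listed coding transcripts, a choice made after seeing the data, Ctsl averaged 21.9 FPKM and Cst6 23.9 FPKM, so that the ratio of Cst6 to Ctsl depends on the length used while its change between libraries does not.

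Promoter sequences (250 bases before to 50 after a start, RefSeq, GRCm38.p6) were found for 5 of the 9 genes, Cst3, Ctsl, Ctsd, Lgmn and Tgm3. Many lysosomal genes carry the hexamer CACGTG, the core of the element bound by TFEB, a factor that controls lysosome biogenesis. This hexamer, which reads the same on both strands, was searched together with TATAAA and the AP-1 motif TGANTCA on both strands. CACGTG was present in 7.15% of 32851 promoters and in 28.3% of the 60 promoters of the lysosomal lists, to which Ctsd, Ctsl and Lgmn belong, TATAAA in 13.6% of all promoters and TGANTCA in 7.81%. The 4 entries of the set that hold any of these motifs are given 5′ to 3′ in lower case with the matches in capitals, so that the place of each match can be seen.
Ctsd, chr7:142387778-142388077, minus strand: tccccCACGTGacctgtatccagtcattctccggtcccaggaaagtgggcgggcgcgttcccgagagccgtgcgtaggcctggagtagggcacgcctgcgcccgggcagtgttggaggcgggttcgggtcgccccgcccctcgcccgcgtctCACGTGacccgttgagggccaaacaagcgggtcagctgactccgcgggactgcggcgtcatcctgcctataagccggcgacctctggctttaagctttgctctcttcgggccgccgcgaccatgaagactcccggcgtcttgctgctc
Ctsl, chr13:64370471-64370770, minus strand: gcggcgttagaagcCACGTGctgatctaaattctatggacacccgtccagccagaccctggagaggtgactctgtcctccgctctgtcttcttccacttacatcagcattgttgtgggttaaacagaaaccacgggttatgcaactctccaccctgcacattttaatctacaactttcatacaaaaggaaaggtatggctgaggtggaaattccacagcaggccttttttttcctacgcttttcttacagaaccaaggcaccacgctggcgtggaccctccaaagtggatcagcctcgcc
Tgm3, chr2:130012090-130012389, plus strand: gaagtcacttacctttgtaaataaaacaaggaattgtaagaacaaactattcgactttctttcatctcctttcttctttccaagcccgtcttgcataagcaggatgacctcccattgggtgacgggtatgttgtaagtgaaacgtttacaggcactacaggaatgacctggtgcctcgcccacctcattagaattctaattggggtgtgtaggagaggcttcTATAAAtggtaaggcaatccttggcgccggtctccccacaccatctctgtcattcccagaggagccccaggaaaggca
Lgmn, chr12:102439043-102439342, minus strand: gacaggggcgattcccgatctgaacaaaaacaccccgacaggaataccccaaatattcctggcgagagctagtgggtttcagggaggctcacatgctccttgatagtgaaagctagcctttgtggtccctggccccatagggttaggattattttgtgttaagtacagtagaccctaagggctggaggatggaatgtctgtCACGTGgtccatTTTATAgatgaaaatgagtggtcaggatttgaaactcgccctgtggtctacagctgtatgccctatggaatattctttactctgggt
Ctsd held CACGTG at -245 and -98 from its start, Ctsl held it at -236, and Tgm3 held TATAAA at -28. Of the 2 starts listed for Lgmn, 1 held CACGTG at -49 and TATAAA on the opposite strand at -37 and the other held none of the 3 motifs, nor did Cst3. No match overlapped another. The windows printed for Ctsl and Lgmn lie wholly inside the positions of the deposited genes, whose 5′ ends are at 64370890 and 102439813. Their matches thus lie within the gene bounds. A match describes the letters of the window only.

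The genes around these 9 were followed in lists of the cysteine protease network, leaving out the 9 themselves. Of 175 listed genes 100 could be tested, of which 3 were called, 2 higher and 1 lower (edgeR quasi-likelihood test, adjusted over all genes), all of them structural substrates of transglutaminases. Over all genes tested 1.35% were called, 1.12% higher and 0.228% lower. Log2 fold changes were positive for 79 of the 100, against 50.1% of all genes tested, and their median was 0.22. Among the 80 genes in the lists of proteases, inhibitors, transglutaminases and lysosome biogenesis 0 were called by edgeR, with 12 at an unadjusted p under 0.05, where 13.3% of all genes tested were under it. Limma also called 0 of them, while among those named here DESeq2 called Tgm7 and Lrp1, a receptor that takes up protease complexes (DESeq2 adjusted p = 0.015 and 0.0292).

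Other cystatins were scarce. Of 20 found among the deposited genes, 9 had no count in any library and 3 could be tested, all of them stefins A, small intracellular inhibitors encoded by similar neighbouring copies whose separate values are uncertain. Stfa1 had 47 and 26 counts with the high-fat diet and 1 and 22 counts with the normal diet. Csta1 had 9 and 29 counts with the high-fat diet and 1 and 35 counts with the normal diet, and Stfa3 had 99 and 56 counts with the high-fat diet against 56 and 121 with the normal diet. In CPM the first normal diet library was the lowest for each of the 3. The log2 fold change of Stfa1 was 1.86 ± 0.97 (SE), and 0.92 without that library. Cst7, an inhibitor of immune cells, had 5 and 2 counts with the high-fat diet and 0 and 2 with the normal diet.

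Of 15 other papain-family cathepsins 8, the set expressed in placenta, had no count and 6 could be tested, with 0 called (edgeR; 2 at an unadjusted p under 0.05). Those 2 were Ctsf and Ctsc. Ctsc, which activates serine proteases of immune cells by removing dipeptides, had 40.9 and 25.0 CPM with the high-fat diet against 15.9 and 21 CPM with the normal diet, a log2 fold change of 0.84 ± 0.27 (SE; edgeR adjusted p = 0.203). Ctsf had 33.6 and 25.1 CPM with the high-fat diet against 12.6 and 19.9 CPM with the normal diet (log2 fold change 0.85 ± 0.28, SE; edgeR adjusted p = 0.197). For both genes the diets did not overlap. Ctsz, a carboxypeptidase, had a log2 fold change of -0.28 ± 0.25 (SE), and Ctss, the cathepsin of antigen-presenting cells, had 12 and 13 counts with the high-fat diet and 1 and 25 counts with the normal diet. Ctsk was too low to test, at 5 and 4 counts with the high-fat diet and 5 and 13 counts with the normal diet.

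Of 8 other lysosomal proteases and activators tested, 7 had positive log2 fold changes and 0 were called (edgeR; 2 at an unadjusted p under 0.05). Tpp1, a tripeptidyl peptidase, had 65.6 and 64.9 CPM with the high-fat diet, against 38.3 and 45.3 CPM with the normal diet. Its diets did not overlap, and its log2 fold change of 0.64 ± 0.17 (SE) missed the threshold (edgeR adjusted p = 0.0977). Psap, the precursor of the saposins that assist lipid breakdown, had 0.29 ± 0.13 (SE), and Dpp7, a dipeptidyl peptidase, -1.24 ± 0.67 (SE). Of 35 genes of lysosomal membranes, sorting and biogenesis 28 were positive with a median of 0.18, and 0 were called (edgeR; 4 at an unadjusted p under 0.05). The smallest p among them belonged to Lrp1 and Lamp2, with log2 fold changes of 0.46 ± 0.12 and 0.43 ± 0.12 (SE; edgeR adjusted p = 0.103 and 0.145). Lamp2, a glycoprotein of the lysosomal membrane, had 279 and 248 CPM with the high-fat diet against 198 and 195 CPM with the normal diet.

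Inhibitors outside the cystatin family had 5 tested genes, 5 positive and 0 called (edgeR; 1 at an unadjusted p under 0.05). Cast, the inhibitor of calpains, had 258 and 245 CPM with the high-fat diet against 194 and 200 CPM with the normal diet (log2 fold change 0.35 ± 0.12, SE; edgeR adjusted p = 0.229). Serpinb3b, a serpin of a family that also blocks cysteine proteases, had 29 and 44 counts with the high-fat diet and 5 and 22 counts with the normal diet, and Tinagl1 had a log2 fold change of 1.48 ± 0.90 (SE). Of 19 tested calpains, caspases and bleomycin hydrolase 14 were positive and 0 were called (edgeR; 1 at an unadjusted p under 0.05). The smallest p belonged to Casp1, Capn10 and Casp2, with log2 fold changes of 0.55 ± 0.25, 0.52 ± 0.27 and -0.37 ± 0.20 (SE). Casp14 and Blmh, which take part in the breakdown of filaggrin in the cornified layer, had log2 fold changes of 0.49 ± 0.29 and -0.16 ± 0.14 (SE).

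Of 4 transglutaminases other than Tgm3 that could be tested, 0 were called (edgeR; 2 at an unadjusted p under 0.05). Tgm5, a transglutaminase of the upper epidermis and the most abundant here, had 79.5 and 81.1 CPM with the high-fat diet against 95.6 and 110 CPM with the normal diet. It was thus lower in both high-fat diet libraries, with a log2 fold change of -0.36 ± 0.14 (SE; edgeR adjusted p = 0.300). Tgm7 had 39 and 32 counts with the high-fat diet and 1 and 5 counts with the normal diet, and its log2 fold change of 3.73 ± 0.91 (SE) missed the threshold (edgeR adjusted p = 0.0790) and was 2.99 with the first normal diet library left out and 5.26 with the second left out. Tgm1, the membrane-bound transglutaminase of keratinocytes, and Tgm2 had log2 fold changes of 0.12 ± 0.44 and 0.21 ± 0.47 (SE).

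Substrates of transglutaminases in the cornified envelope and the inner root sheath had 21 tested genes, of which 2 were higher and 1 was lower (edgeR, adjusted p under 0.05), with 16 positive and a median of 0.60. Over all genes tested 1.12% were called higher and 0.228% lower. Of the 21 genes 9 had an unadjusted p under 0.05 (edgeR), against 13.3% of all genes tested. Between the diets 11 were higher and 3 lower without overlap, against 22.7% and 21.9% of all genes tested. Periplakin (Ppl) rose to 489 and 597 CPM with the high-fat diet, against 287 and 331 CPM with the normal diet, and its partner envoplakin (Evpl) to 435 and 442 CPM with the high-fat diet, against 317 and 261 CPM with the normal diet. Their log2 fold changes were 0.81 ± 0.14 and 0.60 ± 0.13 (SE; edgeR adjusted p = 0.0175 and 0.0466). Flg, the filaggrin gene, fell to 20.1 and 34.2 CPM with the high-fat diet, against 55.2 and 207 CPM with the normal diet (log2 fold change -2.27 ± 0.47, SE; edgeR adjusted p = 0.0413). The call of Evpl was lost when any 1 library was left out, that of Ppl when any but the first high-fat diet library was, and that of Flg when any but the second high-fat diet library was. Without the second normal diet library the log2 fold change of Flg was -1.03. Scaling to the sum of TPM ended the calls of Ppl and Evpl (edgeR adjusted p = 0.0862 and 0.334), total-count scaling that of Evpl (0.0829), DESeq2 that of Flg (adjusted p = 0.219), and limma all 3 (adjusted p between 0.254 and 0.56).

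**Figure D4:**
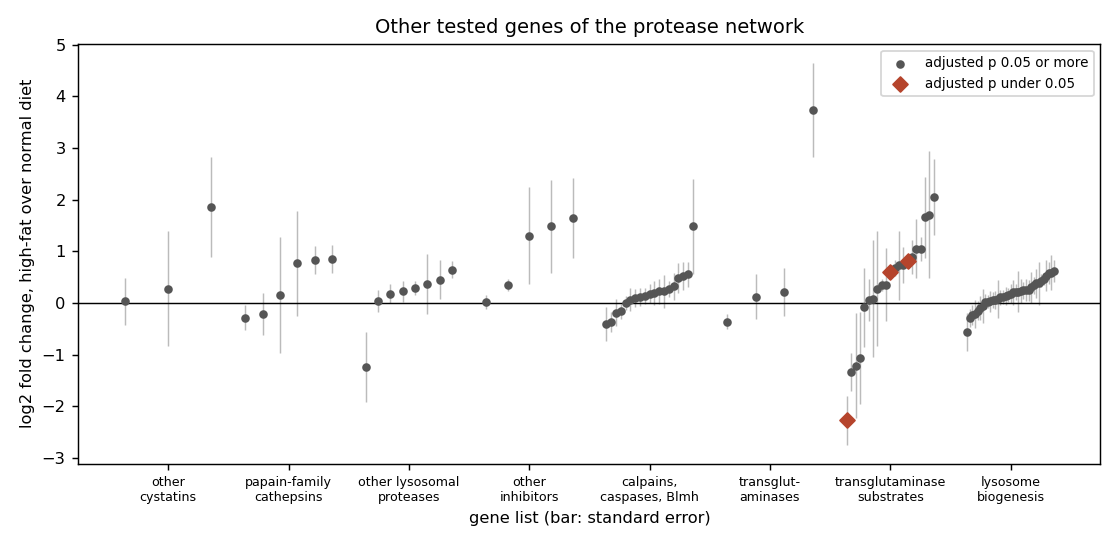
Log2 fold change of high-fat over normal diet with its standard error for each tested gene of the network lists, the 9 main genes left out; a gene in 2 lists is drawn in both, and red diamonds mark an edgeR adjusted p under 0.05. The 3 called genes are substrates of transglutaminases, and most points lie above 0 with bars that reach towards or across it.

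Some markers of other cell types also differed between the diets. For suprabasal epidermis, the layers in which cystatin M/E is best known, 5 of 14 tested markers were higher and 1 was lower (edgeR), where 1.12% of all genes tested were called higher and 0.228% lower. Without overlap 12 of the 14 were higher, against 22.7% of all genes tested. The summed level was 5030 and 6405 CPM on the high-fat diet, against 1739 and 3608 CPM with the normal diet. Krt10, the keratin of these layers (edgeR adjusted p = 0.0396), had 1805 and 2367 CPM with the high-fat diet against 548 and 1158 CPM with the normal diet. That call was lost without the second high-fat diet library (edgeR adjusted p = 0.078), without the first or the second normal diet library (0.464 and 0.139), with DESeq2 (0.275) and with limma (between 0.301 and 0.503). For the upper follicle, where Cst6 is also a marker, 3 of 10 other markers were higher and 0 lower. Their sum was 4114 and 3646 CPM with the high-fat diet against 4509 and 3735 CPM with the normal diet, so the diets overlapped. Krt17 was the largest part of that sum, at 2281 and 2032 CPM with the high-fat diet against 2928 and 2150 CPM with the normal diet. Of the 10 markers, 5 were higher and 2 were lower without overlap, against 22.7% and 21.9% of all genes tested. Krt79 of that list had 806 and 664 CPM with the high-fat diet against 486 and 450 CPM with the normal diet (edgeR adjusted p = 0.0333, lost when any 1 library was left out). Cst6 and Krt79 were higher in the first than in the second library of either diet, and Krt10 was lower. Neither list was uniform in this. With the high-fat diet Gata6 of the upper follicle had 10.7 and 12.9 CPM, and Krtdap of suprabasal epidermis had 95.3 and 74.5 CPM. The part of these markers in the values of Cst6 was not tested, and in bulk samples more cells of a type and more RNA per cell cannot be told apart.

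The summed levels of immune markers were low, and lowest in the first normal diet library. The summed bulge, suprabasal, inner root sheath and endothelial markers were also lowest there. So were 6 of the 9 genes (Cst3, Cstb, Ctsl, Ctsh, Lgmn and Tgm3) and Stfa1, Stfa3, Csta1 and Ctss. Other lists differed. The summed upper follicle, sebaceous gland and melanocyte markers were highest in the first normal diet library, at 4509, 567 and 56.1 CPM. The fibroblast sum was lowest in the second high-fat diet library. Of single immune markers, Cd74, H2-Aa, H2-Ab1, Ptprc, Cd3g and Thy1 were, like the sums, lowest in CPM in the first normal diet library. Csf1r was lowest in the second normal diet library. Cd207, the marker of Langerhans cells, was highest in the first, with 14 and 15 counts with the high-fat diet and 27 and 15 counts with the normal diet. Of 17 markers of macrophages and Langerhans cells 8 could be tested, with 0 called (edgeR; 2 at an unadjusted p under 0.05), a sum of 68.4 and 87.5 CPM with the high-fat diet against 30.4 and 59.2 CPM with the normal diet, and no count of Itgam. Ptprc, the marker of all leukocytes, had 22 and 59 counts with the high-fat diet and 9 and 72 counts with the normal diet, and Cd74 had 31.1 and 32.5 CPM on the high-fat diet against 12.8 and 23.6 CPM on the normal diet. The macrophage genes Lyz2, C1qa and C1qc had at most 5 counts in any library. Markers of T cells summed to 30.6 and 34.4 CPM with the high-fat diet, against 2.04 and 20.0 CPM with the normal diet. Of 5 tested T cell markers 5 had positive log2 fold changes and 0 were called (edgeR; 1 at an unadjusted p under 0.05). Without overlap 4 were higher, against 22.7% of all genes tested. Cst3, Ctsb, Ctsl and Lgmn, which immune cells also express, stood at levels of 16.7 CPM and above in every library, and the part of immune cells in their values was not tested. Markers of the inner root sheath and hair shaft, tissues that use Tgm3, summed to 206 and 235 CPM with the high-fat diet against 134 and 191 CPM with the normal diet, mostly from Gata3, while Krt71 had 10 and 19 counts with the high-fat diet and 18 and 18 with the normal diet, with Krt72, Krt26, Padi3, Krt34 and Krt86 at 0 counts. Their part in the values of Tgm3 was not tested. Fibroblast markers, with Corin at 0, summed to 505 and 449 CPM with the high-fat diet against 462 and 558 CPM with the normal diet, with Fbln1 as the largest part, at 260 and 238 CPM with the high-fat diet against 309 and 361 CPM with the normal diet. Of the 9 tested fibroblast markers 8 had positive log2 fold changes, 5 were higher without overlap and 0 were called (edgeR; 3 at an unadjusted p under 0.05), and Col1a1 had 0.53 ± 0.30 (SE). The part of fibroblasts in the values of the 9 genes was not tested. Markers of sebaceous gland, endothelium and melanocytes summed to at most 567 CPM in any library.

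**Figure D5:**
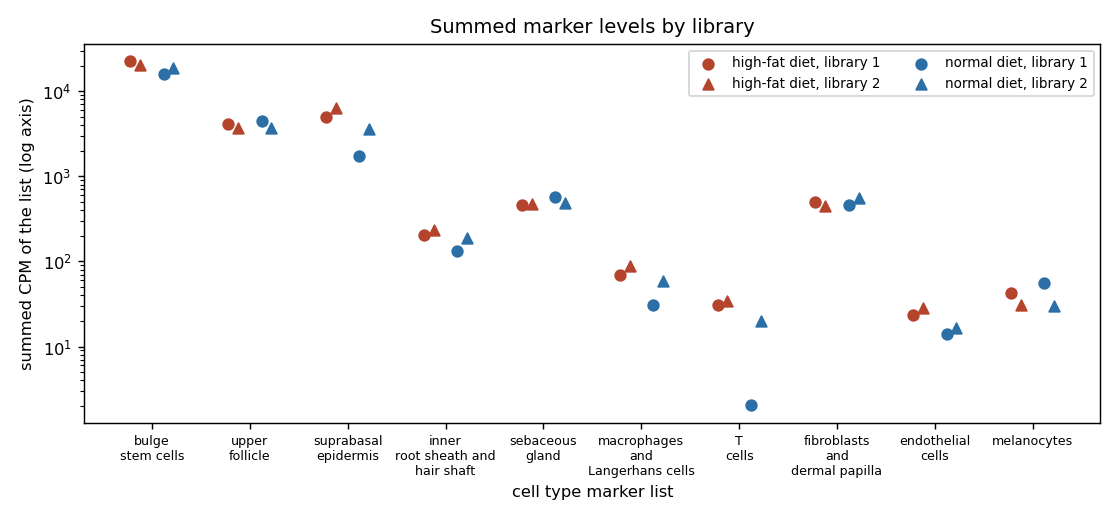
Summed CPM of each cell type marker list on a log axis in each library, high-fat diet in red and left of the normal diet in blue. Suprabasal markers lie at 5030 and 6405 CPM in high-fat diet libraries against 1739 and 3608 CPM in normal diet libraries, and T cell markers reach their lowest value, 2.04 CPM, in the first normal diet library.

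The genes whose pattern over the 4 libraries was closest to Cst6 were taken by the root mean square difference of log2 CPM, each centred on its own mean, among 10908 named genes with a mean of at least 1 FPKM. They were Manba, a lysosomal beta-mannosidase, at 0.07, Fads2b at 0.08, Orm1, a plasma protein of the acute phase, at 0.09, Mfsd2a, a transporter of lysophosphatidylcholine, at 0.11, and Foxq1, a forkhead factor of the hair shaft, at 0.13. Foxq1 had 17.4 and 17 CPM with the high-fat diet against 6.99 and 5.23 CPM with the normal diet. Manba had 14.2 and 10.9 CPM with the high-fat diet against 5.24 and 4.50 CPM with the normal diet. Manba, Fads2b, Orm1 and Foxq1 shared the order of the libraries with Cst6, for likeness to which they were picked. Over 4 libraries this measure favours any gene with a like difference between the diets. Of the 8 other genes of the set Ctsd was nearest to Cst6, at 0.42, and Tgm3 farthest, at 0.97.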

How the data were processed

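The 4 libraries were assigned to the high-fat or normal diet from their treatment labels. The table that the authors deposited holds, for each gene and library, a raw count and an FPKM, beside exonic sizes and coordinates. Per the submitters' processing notes, HISAT2 2.0.1 was used, with cutadapt 1.9.1 and bcl2fastq 2.17.1.14. Not given in the sources used here are the build, the annotation, the counting program and its strand setting. The 221604 deposited FPKM values could each be computed from the count, the exonic size and the column total to within 0.0051 FPKM. Of 55141 gene identifiers found in GENCODE M21, 99.4% have the same position on GRCm38, so positions are given on that build.

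Differences were tested on counts by quasi-likelihood in edgeR 4.0.16 (R 4.3.3) after TMM scaling. Genes had to reach the CPM of about 10 counts in at least 2 libraries, with 15 counts in total. Benjamini-Hochberg adjustment ran over all 14479 genes that passed, with calls at 0.05. Standard errors are the log2 fold change divided by the square root of F. The common biological coefficient of variation was 20.3%. DESeq2 1.42.0, limma 3.58.1 on log2(FPKM + 1), other scalings and filters, each library left out in turn and a replicate block were alternatives, and the fits were tested on simulated data. The 9 genes and all lists were chosen with earlier results of these data known. Named genes were the 9, in each list the called genes and those of smallest p up to 3, 12 further protease network genes and 8 markers named whatever their values and the 5 genes most like Cst6. The floor of 3 counts reflects counting error only, while standard errors and SDs include the spread between libraries. A gene that the rule for named genes selects is not reported here.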

Additional observations from a re-analysis of the deposited data

How the results depend on the processing

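The log2 fold change of Cst6 lay between 1.31 and 1.67 in the alternatives run and moved by less than the spread between replicates. The counts of called genes depended on the settings. Over all genes, against 162 higher and 33 lower, scaling to the sum of TPM called 88 and 3, DESeq2 275 and 119, no filter beyond 1 count 408 and 225, and a replicate block 308 and 111. Total counts called 65 lower and a filter of 10 counts in every library 70 lower. Limma called 1 higher and 0 lower with a pseudocount of 1 or 0.1, and 0 and 0 without a filter, with 1918, 1921 and 2319 genes at an unadjusted p under 0.05. Leaving out 1 library gave between 0 and 81 higher and between 0 and 2 lower genes.

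In the network lists without the 9 genes, against 2 higher and 1 lower, the higher calls were 0 with the sum of TPM, 1 with total counts, 9 with no filter, 4 with the filter of 10 counts, 6 with DESeq2, 6 with a replicate block and 0 with limma in its 3 forms. The lower calls were 3 with no filter, 2 with a replicate block and 0 with limma in its 3 forms. Leaving out 1 library gave between 0 and 1 higher and between 0 and 1 lower. Tgm7 was called by DESeq2, with no filter and with a replicate block, Tpp1, Ctsc and Krt15 with no filter, and Lrp1 with no filter and by DESeq2. The cause of these shifts was not tested. The replicate numbers are shared between the diets without a stated pairing, and same-numbered libraries did not deviate together (r = -0.01 across genes, which are not independent). With 2 libraries per diet, genes that did not reach about 10 counts in at least 2 libraries were not tested. Genes below that in both libraries of 1 diet, such as Tgm7 and Tinagl1, were tested but rest on few counts there.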
